A study of Mus musculus with 7 samples.

Results

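Lhx2, Ebf1, Ebf2, Ebf3, Emx2 and Fezf1 are 6 transcription factor genes of the olfactory lineage, and their levels are described here in single cells from noses of mouse embryos at day 14.5 of gestation. The 6 genes were chosen by name, were all found among the 30323 genes that every library lists, and are described across 31465 cells of 6 single-cell libraries. The olfactory epithelium makes its sensory neurons from basal progenitors that pass through a Neurog1 and Neurod1 stage before they become neurons. Lhx2 is a LIM-homeodomain factor needed for sensory neurons to mature and for most odorant receptor genes to be expressed. The Ebf genes, also called Olf or O/E genes, encode helix-loop-helix factors found through their binding to the promoters of olfactory genes, and they are also known from B cells, fat and stromal cells. Emx2 is a homeodomain factor with roles in odorant receptor expression and in axon growth towards the olfactory bulb. Fezf1 is a zinc-finger repressor needed for olfactory axons to reach the bulb and for GnRH neurons to enter the brain.

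All libraries came from whole noses that were turned into single cells by enzymes (collagenase and papain), cryopreserved and later captured with the 10x Chromium 3′ v3.1 chemistry. The wild-type (WT) group is of CD1 IGS mice, for which the labels give 5 noses and 5 libraries without tying a nose to a library. The other group carries ProKR2iCre and R26tdTomato (the alleles Prokr2em1(cre)Cfe and Gt(ROSA)26Sortm14(CAG-tdTomato)Hze, with B6, SJL and Cg in the strain name), in which Prokr2 drives Cre and Cre switches on a red reporter. Its 2 libraries, called Prokr2Cre library 1 and 2 here, came from 1 nose and 1 suspension, of which one part was sorted by flow cytometry and one was not; the sample labels do not say which library is which, so they are described one by one and never tested as replicates. The labels give no allele for the CD1 mice, and strain and genotype cannot be told apart between the groups.

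WT replicates 3 and 4 shared 7386 cell barcodes, against 1 to 34 for other pairs of libraries, so replicate 3 was left out and the WT captures are replicates 1, 2, 4 and 5 (n = 4). Total counts were 16773781 to 89800259 UMIs (molecules counted by their barcode) per library, and the kept cells had a median of 5127 to 13692 UMIs. Levels are CPM, the UMIs of a gene scaled to the total UMIs of the summed cells of a class. WT replicate 1 was the lowest of the 4 captures for Ebf1 in 9 of 10 classes, for Ebf2 in 5 of 6 and for Ebf3 in 7 of 8. It was also the lowest for Lhx2 in 4 of 6 classes, for Emx2 in 4 of 8 and for Fezf1 in 2 of 5. It is the only library counted with Cell Ranger 6.0.1 (7.0.0 for the other WT libraries, 6.1.2 for the Prokr2Cre libraries), and the part of that difference was not tested. Cells were placed in classes by marker genes that include none of the 6 members.

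In the GRCm38 assembly the 6 genes lie on separate chromosomes: Lhx2 on chr2:38339281-38369733 (plus strand), Fezf1 on chr6:23245044-23248362 (minus strand), Ebf3 on chr7:137193673-137314445 (minus strand), Ebf1 on chr11:44617317-45008091 (plus strand), Ebf2 on chr14:67233292-67430918 (plus strand) and Emx2 on chr19:59458372-59465357 (plus strand). All are protein-coding genes of the GENCODE M21 annotation, spanning from 3.319 kb (Fezf1) to 390.775 kb (Ebf1). RefSeq promoter windows (GRCm38.p6) matched 5 of the 6 members, Ebf2 being the one without an entry. The 250 bases before the RefSeq start are shown for 3 of the 4 members with a motif in a window and, for contrast, for the first of 2 Lhx2 windows, which has none. The RefSeq start is not always the start of the GENCODE gene given above: the Emx2 and Ebf1 windows lie inside those genes and the Fezf1 window overlaps the gene's start, so positions below are counted from the RefSeq start. Capitals mark either of 2 motifs searched on both strands, CCCNNGGG (the core of the site that Ebf factors bind) and TAAT (the core of sites for homeodomain factors such as Lhx2 and Emx2).

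Lhx2, chr2:38339031-38339280, plus strand: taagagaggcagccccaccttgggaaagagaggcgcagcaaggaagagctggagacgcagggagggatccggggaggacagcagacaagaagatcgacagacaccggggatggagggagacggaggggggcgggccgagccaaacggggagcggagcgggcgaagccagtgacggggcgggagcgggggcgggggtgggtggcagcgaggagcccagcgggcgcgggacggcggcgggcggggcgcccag
Ebf3, chr7:137314446-137314695, minus strand: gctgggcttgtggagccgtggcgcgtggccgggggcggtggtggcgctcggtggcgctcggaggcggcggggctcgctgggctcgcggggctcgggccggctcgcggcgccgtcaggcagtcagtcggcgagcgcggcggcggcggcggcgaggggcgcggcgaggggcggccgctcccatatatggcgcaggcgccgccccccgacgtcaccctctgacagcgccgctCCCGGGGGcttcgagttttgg
Emx2, chr19:59458440-59458689, plus strand: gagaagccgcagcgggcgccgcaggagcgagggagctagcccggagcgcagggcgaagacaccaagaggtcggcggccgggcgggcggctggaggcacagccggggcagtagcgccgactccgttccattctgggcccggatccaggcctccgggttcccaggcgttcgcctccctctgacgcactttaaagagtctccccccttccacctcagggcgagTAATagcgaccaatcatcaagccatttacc
Fezf1, chr6:23248265-23248514, minus strand: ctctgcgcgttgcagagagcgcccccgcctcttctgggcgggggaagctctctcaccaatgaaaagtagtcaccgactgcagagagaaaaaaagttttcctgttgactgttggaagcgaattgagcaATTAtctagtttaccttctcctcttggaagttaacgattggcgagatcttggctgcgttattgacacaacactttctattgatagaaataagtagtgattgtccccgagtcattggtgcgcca

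CCCNNGGG occurred once in the Ebf3 window, starting 21 bases before the RefSeq start, and in none of the other windows of the members, and 11.8% of the 32851 RefSeq windows of this length hold it. TAAT occurred once each in Emx2 (30 bases before the start), Fezf1 (123 bases before) and one of the Ebf1 windows (178 bases before), and 54.9% of all windows hold it. The longer homeodomain site TAATTA, which contains TAAT, occurred in none of the members' windows, against 4.84% of all windows. The share of G and C was 72.8% in the Lhx2 window shown (68.4% in the other), 80.0% in Ebf3, 67.2% in Emx2 and 47.6% in Fezf1. These matches describe letters in a window and do not show binding.

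By WT means all 6 members were highest in the olfactory lineage or in neurons outside its gate, but for Ebf1 pericytes were close behind and above olfactory neurons in 2 of the 3 captures that had them. In WT olfactory neurons (225 cells with at least 3 pan-neuronal and 2 olfactory markers), Lhx2 stood at 448 ± 180 CPM, Ebf1 at 1347 ± 356, Ebf2 at 611 ± 272, Ebf3 at 460 ± 187, Emx2 at 180 ± 81.1 and Fezf1 at 69.5 ± 36.2 (mean ± SD, n = 4 captures). In WT olfactory progenitors (354 cells with at least 2 of 5 progenitor markers such as Neurog1 and Neurod1), Lhx2 stood at 402 ± 121 CPM, Ebf1 at 816 ± 385, Ebf2 at 500 ± 388, Ebf3 at 117 ± 66.3, Emx2 at 84.8 ± 24.1 and Fezf1 at 101 ± 34.0 (n = 4). Immune cells (241 WT cells) served as the background, with a WT mean of 0 for Fezf1 and at most 2.47 CPM for Ebf1 (0.671, 9.21, 0 and 0 CPM in WT replicates 1, 2, 4 and 5, the second from 5 UMIs). Fezf1 had 0 UMIs there in each WT capture, which allows up to 2.01 to 6.57 CPM by counting error alone. Here and below a lower level in a class of summed cells cannot separate fewer expressing cells from less RNA per cell.

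**Figure D1:**
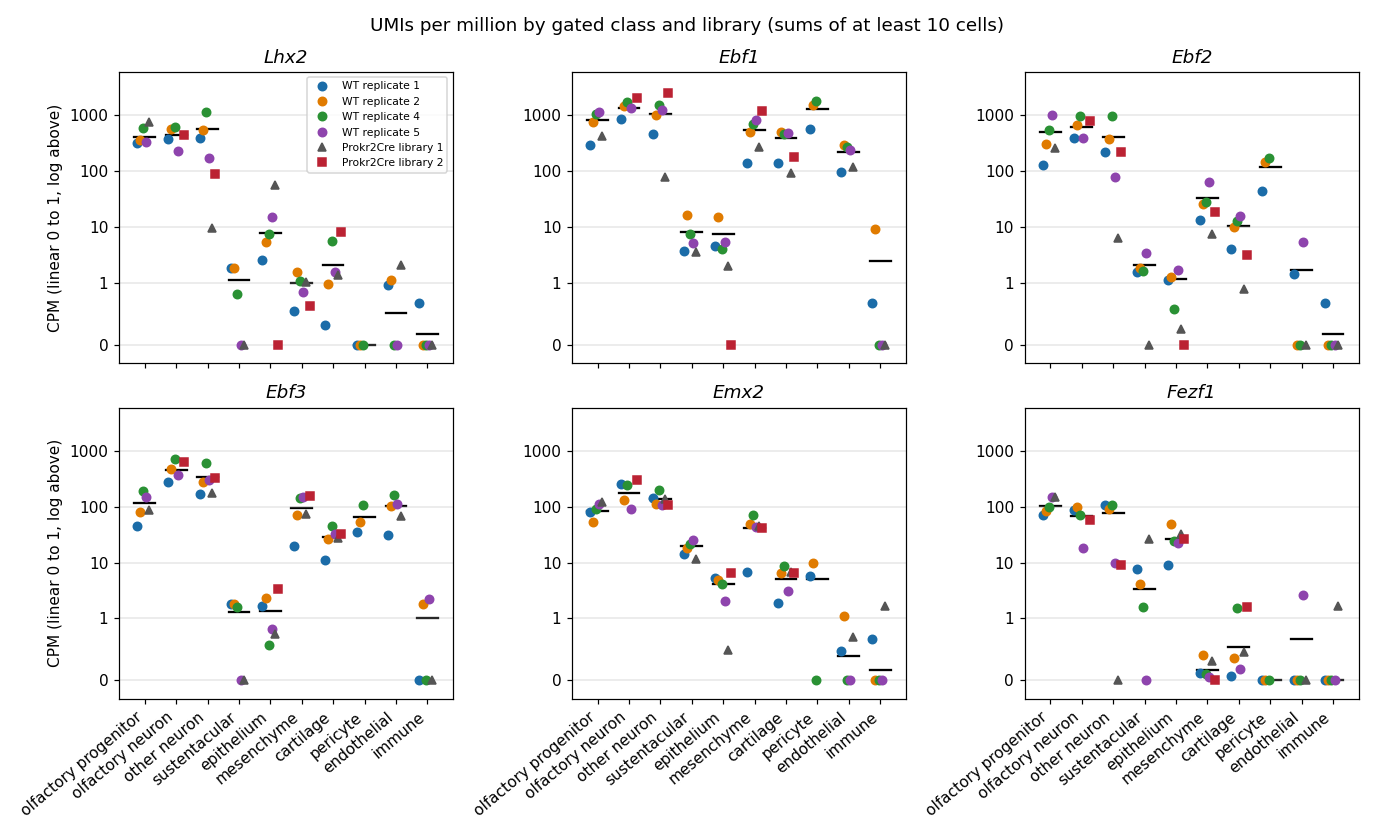
Level of each member (CPM, linear from 0 to 1 and logarithmic above) by class, one point per library with at least 10 cells of the class; circles are WT captures, the triangle and square are Prokr2Cre libraries 1 and 2, and black bars are WT means. Lhx2 drops from a WT mean of 402 CPM in progenitors to 7.72 in epithelium, whereas Ebf1 stays at 540 in mesenchyme and 1314 in pericytes.

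Lhx2 was high in the neural classes and low in all others. In olfactory neurons it was at 380, 569, 619 and 227 CPM in WT replicates 1, 2, 4 and 5, and at 425 and 449 CPM in Prokr2Cre libraries 1 (8 cells) and 2 (127 cells). WT replicate 5 was low and rests on 12 cells, in which the 8 mesenchyme markers summed to 3411 CPM, against 388 to 605 in the other WT captures; the part of such cells in its value was not tested. Orders of WT means, here and below, hold the classes with at least 3 captures. In that of Lhx2, other neurons (562 CPM), olfactory neurons and progenitors overlapped one another. The next class, epithelium, was at 7.72 ± 5.46 CPM, with no overlap. Every class from epithelium (2.58 to 15.3 CPM) down to pericytes (0 UMIs) overlapped its neighbour in the order. Of the Lhx2 UMIs in gated cells of a WT capture, 38.0% to 45.3% lay in progenitors, 14.8% to 39.5% in olfactory neurons and 16.7% to 28.7% in other neurons.

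The 3 Ebf genes were shared with stromal cells to different degrees. Ebf1 was at 862, 1453, 1713 and 1360 CPM in the olfactory neurons of WT replicates 1, 2, 4 and 5 and at 140, 496, 709 and 816 CPM in mesenchyme, so the ranges did not overlap. Ebf2 was at 395, 683, 965 and 400 CPM in neurons and at 13.3, 25.4, 27.4 and 64.7 CPM in mesenchyme. Ebf3 was at 281, 468, 716 and 376 CPM in neurons and at 20.2, 71.9, 145 and 151 CPM in mesenchyme. The order of WT means for Ebf1 ran from olfactory neurons through pericytes, other neurons, progenitors, mesenchyme, cartilage and bone to endothelial cells (223 ± 86.2 CPM), with every neighbour overlapping, before a gap to glia (17.0 CPM). Muscle, left out of the order with 2 captures, had a value of 82.2 CPM in that gap and another of 3.10 CPM below it. Ebf3 had such a gap between bone (15.6 CPM) and glia (1.63 CPM). Ebf2 had none: cartilage (10.6 CPM) did not overlap sustentacular cells (2.11 CPM), its neighbour in the order, but bone above them reached down to 2.41 CPM and endothelial cells below them up to 5.29 CPM. Mesenchyme is the largest class (14457 WT cells), and it held 50.6% to 75.7% of the gated Ebf1 UMIs of a WT capture and 45.4% to 84.5% of the Ebf3 UMIs, while olfactory neurons held 1.06% to 12.1% and 1.76% to 24.4%.

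Emx2 had its highest WT mean in olfactory neurons, at 252, 134, 244 and 89.5 CPM in WT replicates 1, 2, 4 and 5 and at 267 and 301 CPM in Prokr2Cre libraries 1 (8 cells) and 2 (127 cells). In WT replicate 5 olfactory neurons were below progenitors (111 CPM) and other neurons (107 CPM). Mesenchyme held 25.4%, 75.3%, 80.7% and 85.8% of the gated Emx2 UMIs of WT replicates 1, 2, 4 and 5. Olfactory neurons held 36.0%, 4.99%, 6.54% and 1.49%. The order of WT means for Emx2 ran from olfactory neurons through other neurons (141 ± 42.8 CPM), progenitors, mesenchyme (42.2 ± 26.4) and sustentacular cells (19.8 ± 4.86), with each neighbour overlapping. Bone cells came next at 5.92 ± 2.83 CPM and did not overlap sustentacular cells. This was no gap in the order, since mesenchyme reached down to 6.87 CPM and bone cells up to 9.17 CPM. Emx2os, an antisense gene on chr19:59425104-59458635 that overlaps the start of Emx2 on the other strand, was at 46.6, 31.4, 47.2 and 47.7 CPM in the same olfactory neurons. How strand was used in counting is not given in the sources used here, and how reads of the overlap were divided between Emx2 and Emx2os was not tested.

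The levels of Fezf1 in progenitors and neurons overlapped. In progenitors it was at 72.5, 84.9, 98.6 and 150 CPM in WT replicates 1, 2, 4 and 5 and 152 CPM in Prokr2Cre library 1. In olfactory neurons it was at 87.0, 101, 72.4 and 17.9 CPM in the WT captures, the last from 3 UMIs, so that neurons were above progenitors in WT replicates 1 and 2. The 8 olfactory neurons of Prokr2Cre library 1 held Fezf1 at 27.4 CPM (4 UMIs), and the 127 of Prokr2Cre library 2 at 58.1 CPM. In other neurons Fezf1 was at 106, 90.8, 108 and 9.74 CPM in the WT captures. Its order of WT means was progenitors, other neurons (78.7 ± 46.6), olfactory neurons and epithelium (26.3 ± 17.0), all overlapping, and then sustentacular cells (3.37 ± 3.33), which did not overlap epithelium. The first place of progenitors rests on WT replicate 5: without it the mean was 85.3 CPM in progenitors and 86.7 CPM in olfactory neurons, and other neurons were above progenitors in each of the other 3 captures. Like Lhx2, Fezf1 was next highest in epithelium after the neural classes and was near 0 in mesenchyme (0.174 ± 0.164 CPM).

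Progenitors, immature neurons and mature neurons are set side by side here, but their means rest on different captures. Immature neurons have no UMI of 8 mature markers such as Omp, and mature neurons have at least 2. By WT means over captures with at least 10 cells, Lhx2 stood at 402 ± 121 CPM in progenitors (n = 4), 731 ± 249 in immature (n = 3) and 293 ± 152 in mature neurons (n = 2). Fezf1 stood at 101 ± 34.0, 119 ± 28.7 and 58.4 ± 19.8 CPM, and Emx2 at 84.8 ± 24.1, 298 ± 145 and 148 ± 28.2 CPM. Ebf1 stood at 816 ± 385, 1606 ± 759 and 1150 ± 496 CPM, and Ebf2 at 500 ± 388, 822 ± 481 and 504 ± 294 CPM. Ebf3 stood at 117 ± 66.3, 645 ± 426 and 364 ± 220 CPM. In the 3 captures with at least 10 immature neurons (WT replicates 1, 2 and 4), the immature values of Ebf3 (342, 462 and 1132 CPM), Emx2 (355, 133 and 406 CPM) and Lhx2 (589, 585 and 1018 CPM) lay above every WT progenitor value, the highest of which were 191, 111 and 581 CPM. The 4 immature neurons of WT replicate 5 went the other way, at 133 CPM for Ebf3 (4 UMIs), 33.2 for Emx2 (1 UMI) and 299 for Lhx2 (9 UMIs), against 150, 111 and 339 CPM in its progenitors. The ranges of Ebf1 and Ebf2 overlapped between neighbouring steps. WT replicate 4, with the highest immature value of each member, is not in the mature means. In WT replicate 2, mature neurons were above immature ones for Ebf1 (1500 and 1266 CPM), Ebf2 (712 and 690) and Ebf3 (520 and 462), and in WT replicate 1 they were below for all 3 (799 and 1077, 296 and 420, 209 and 342).

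**Figure D2:**
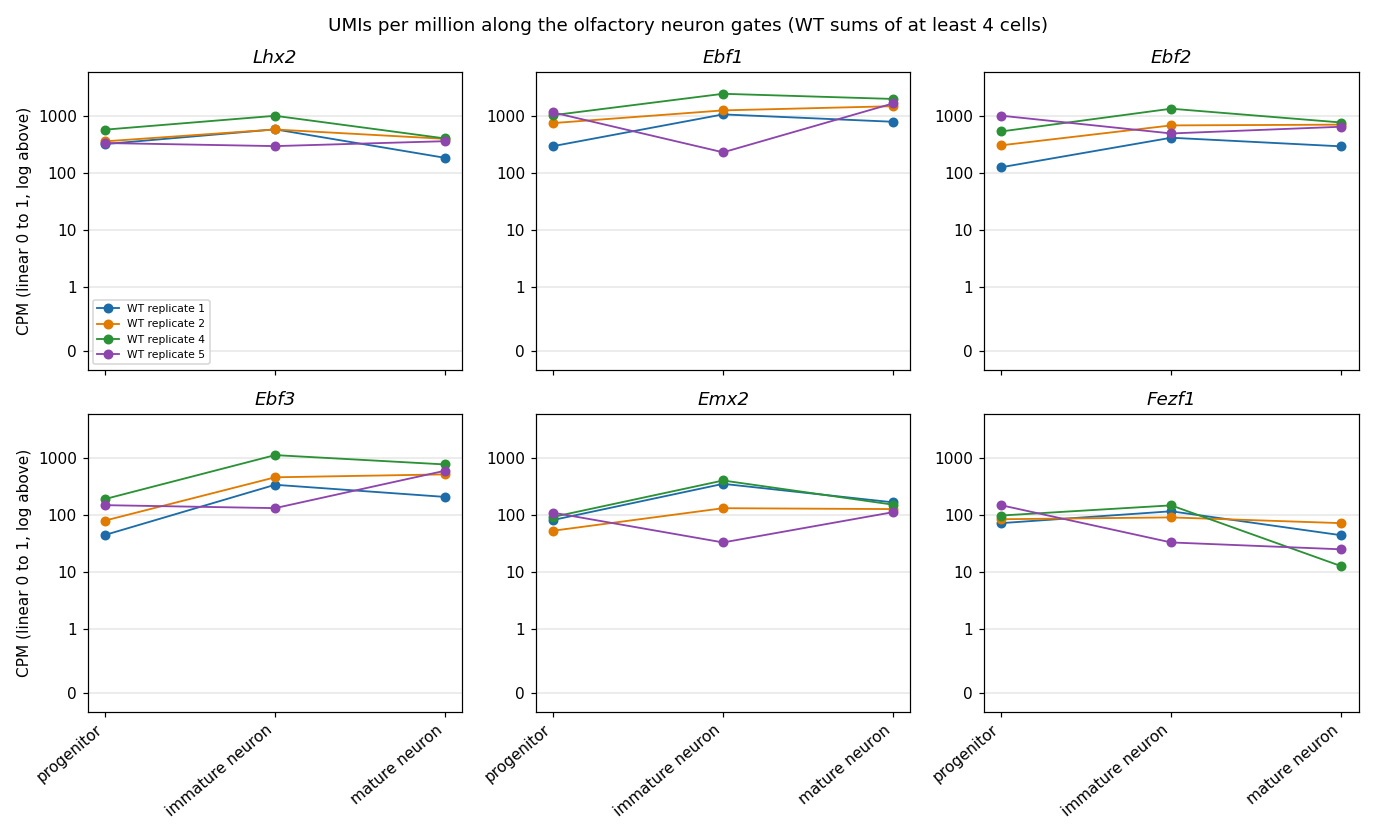
Level of each member (CPM, linear from 0 to 1 and logarithmic above) in progenitors, immature and mature olfactory neurons, with one line per WT capture and sums of at least 4 cells. Ebf3 rises from 44.9 and 80.2 CPM in the progenitors of WT replicates 1 and 2 to 342 and 462 CPM in their immature neurons; the immature value of WT replicate 5, from 4 cells, is 133 CPM against 150 CPM in its progenitors.

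Only WT replicates 1 and 2 had 10 cells of both kinds of neuron. There Lhx2 was at 589 and 585 CPM in immature and at 186 and 401 CPM in mature neurons, a log2 fold change of -1.20 ± 0.30 (edgeR adjusted p = 0.00247), in a comparison that called 6.31% of 4805 genes at an adjusted p of 0.05 in either direction. The call was lost with DESeq2 (adjusted p = 0.201), without the capture as a block (0.990), with the highest doublet scores removed (0.187) and with all classes in 1 fit (0.102), so it held in 3 of 7 alternatives, over which the log2 fold change was -1.40 to -1.09. The other 5 members did not pass (Fezf1 -1.02 ± 0.41, adjusted p = 0.133; Emx2 -0.75 ± 0.34, 0.198; Ebf3 -0.35 ± 0.30, Ebf2 -0.31 ± 0.29 and Ebf1 -0.18 ± 0.29, at 0.636, 0.678 and 0.847). With a minimum of 5 cells, which adds WT replicate 4, Fezf1 (-1.35, adjusted p = 0.0227) and Emx2 (-0.96, 0.0229) passed too.

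Between the progenitor and the neuron class as a whole, 3 members differed and 3 did not pass. Ebf3 was lower in progenitors by a log2 fold change of -2.06 ± 0.20 (edgeR adjusted p = 2.88e-05), Emx2 by -1.12 ± 0.23 (0.00413) and Ebf1 by -0.77 ± 0.18 (0.00694). Ebf2 (-0.57 ± 0.36, adjusted p = 0.253), Lhx2 (-0.06 ± 0.17, 0.814) and Fezf1 (0.35 ± 0.31, 0.421) were not called. The comparison called 31.6% of 9057 genes, so 3 calls among 6 members stand beside a high background. Without WT replicate 2 the adjusted p was 0.0579 for Ebf1 and 0.0547 for Emx2, without WT replicate 4 it was 0.0522 for Emx2, without the block it was 0.249 for Ebf1 and 0.0861 for Emx2, and without WT replicate 5 Ebf2 was called (-1.08, adjusted p = 7.25e-05). With 1 more marker asked of each gate, which also left out WT replicate 5 for too few neurons, Lhx2 (0.69, adjusted p = 0.00167) and Fezf1 (1.17, 0.00161) were called higher in progenitors; without that capture alone they were -0.20 and 0.08 and not called (0.299 and 0.790).

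Among the 25 other olfactory regulators, 14 were higher and 4 lower in progenitors than in neurons (median log2 fold change 0.85, against -0.0044 over all genes). Over all 9057 genes tested, 1356 were called higher and 1510 lower. Runx1 (3.77), Hes6 (3.47) and Hes5 (2.76) were among the most raised in progenitors, Hes5 being a target of Notch signalling. Atf5 (-3.40), a factor needed for sensory neurons to mature, Klf7 (-1.17), Dlx6 (-1.00) and Uncx (-0.67) were the lowest. Of the 18 cofactors and relatives, 10 were tested and 5 were lower in progenitors, led by Ebf4 (-4.42), Ssbp2 (-2.32), Lmo2 (-1.87) and Zfp521 (-1.52); Zfp521 and its relative Zfp423 (-1.07) encode zinc-finger proteins that bind Ebf factors.

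**Figure D3:**
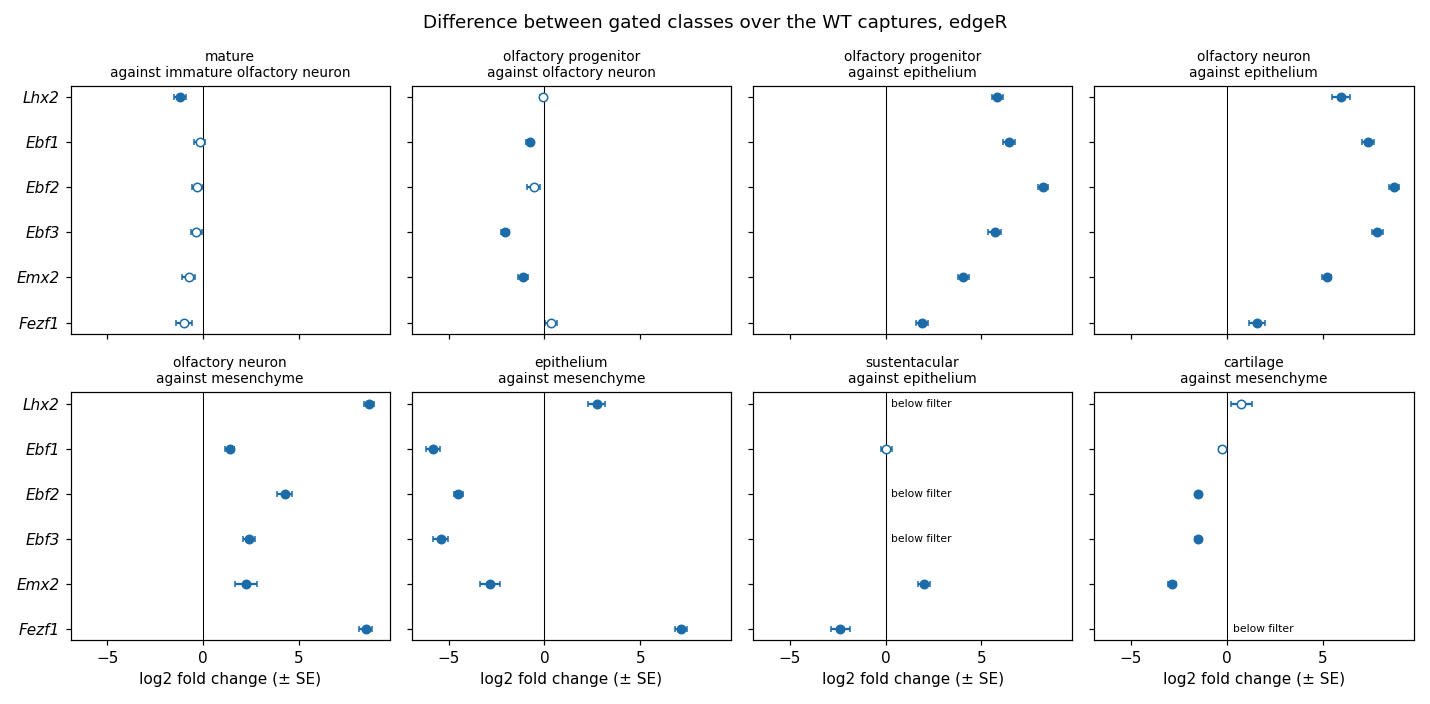
Log2 fold change (± SE) of each member in 8 comparisons of classes over 4 WT captures (2 for mature against immature neurons), from edgeR; filled points passed an adjusted p of 0.05 and open points did not. Lhx2 and Fezf1 lie on the right in epithelium against mesenchyme (2.74 and 7.12), where the Ebf genes and Emx2 lie on the left.

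Against the epithelium (1424 WT cells with at least 3 epithelial markers and no progenitor marker UMI), all 6 members were higher in both neural classes. In progenitors the log2 fold change was 8.19 ± 0.25 for Ebf2, 6.43 ± 0.31 for Ebf1, 5.82 ± 0.29 for Lhx2, 5.69 ± 0.33 for Ebf3, 4.06 ± 0.26 for Emx2 and 1.90 ± 0.31 for Fezf1, with edgeR adjusted p from 2.70e-08 to 0.000668 and 37.0% of 10392 genes called. In olfactory neurons it was 8.71 ± 0.27 for Ebf2, 7.86 ± 0.30 for Ebf3, 7.36 ± 0.32 for Ebf1, 5.94 ± 0.47 for Lhx2, 5.21 ± 0.23 for Emx2 and 1.58 ± 0.42 for Fezf1 (adjusted p from 2.39e-07 to 0.0191), with 33.4% of 10462 genes called. The Fezf1 call in neurons was lost without WT replicate 4 (adjusted p = 0.0752) and without the block (0.105). Among the 25 regulators 20 were higher and 3 lower in progenitors than in epithelium, and 9 were higher and 8 lower in neurons (24 tested).

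Fezf1 in the epithelium was found in its basal cells. Basal cells, with at least 2 of 5 basal markers such as Krt5, held 9.43, 68.2, 30.4 and 25.8 CPM in WT replicates 1, 2, 4 and 5 and 34.0 CPM in Prokr2Cre library 1. Simple epithelium, with no basal marker, held 5.45, 0.868, 0 and 0 CPM, where 0 allows up to 11.5 and 19.7 CPM. The lowest basal value lay above the highest simple value, and no test of this pair was planned. Basal Fezf1 was spread over 24 of 286, 133 of 450, 17 of 105 and 21 of 131 WT cells, and the top cell held 3.17% to 22.5% of its UMIs.

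Lhx2 in the same basal cells was at 1.45, 6.71, 8.36 and 17.2 CPM in WT replicates 1, 2, 4 and 5 and at 59.3 CPM in Prokr2Cre library 1. Few of these cells held it. The WT values came from 6 of 286, 17 of 450, 5 of 105 and 11 of 131 cells, in which the top cell held 1 of 6, 7 of 31, 7 of 11 and 6 of 36 UMIs. The value of Prokr2Cre library 1 came from 225 UMIs in 19 of 158 cells, of which 1 cell held 104. Lhx2 and Fezf1 were found in the same basal cell at most once per library. The 5 progenitor markers were at 0 in these cells by the rule of the gate, and pan-neuronal markers summed to 18 to 45 CPM in the WT captures and 29 CPM in Prokr2Cre library 1.

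Sustentacular cells, the supporting cells of the olfactory epithelium (698 WT cells), held Emx2 but little of the other members. Emx2 was at 14.2, 18.0, 21.2 and 25.7 CPM in WT replicates 1, 2, 4 and 5, against 5.34, 4.83, 4.05 and 2.07 CPM in the epithelium, with no overlap. In edgeR Emx2 was higher in sustentacular cells by 1.99 ± 0.30 on the log2 scale (adjusted p = 0.000605) and Fezf1 was lower by -2.36 ± 0.50 (0.00611), where 19.2% of 11239 genes were called. Ebf1 did not pass (0.04 ± 0.26, adjusted p = 0.956), and Lhx2, Ebf2 and Ebf3 were below the filter on low counts. Without WT replicate 2 the Fezf1 call was lost (-1.67, adjusted p = 0.0864). Fezf1 in sustentacular cells of Prokr2Cre library 1 was 26.6 CPM (30 UMIs), above all 4 WT captures (0 to 7.63 CPM).

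**Figure D4:**
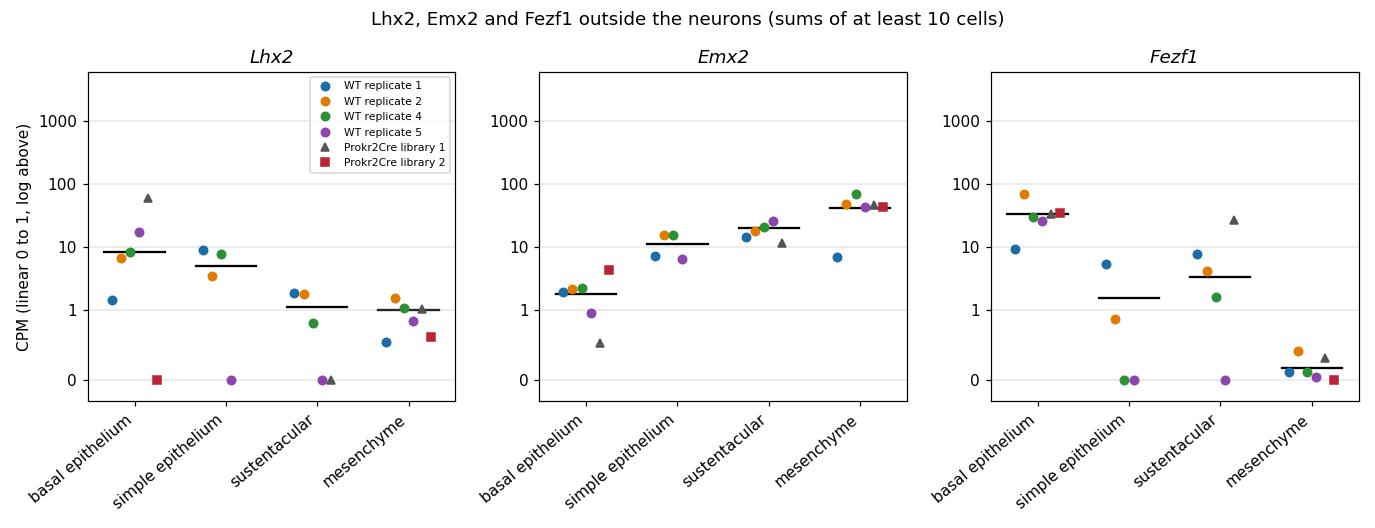
Levels of Lhx2, Emx2 and Fezf1 (CPM, linear from 0 to 1 and logarithmic above) in basal epithelium, simple epithelium, sustentacular cells and mesenchyme, one point per library with at least 10 cells and black bars for WT means. Fezf1 is at 9.43 to 68.2 CPM in WT basal cells and Emx2 at 14.2 to 25.7 CPM in WT sustentacular cells.

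Epithelium and mesenchyme held opposite members. Against mesenchyme, Fezf1 (7.12 ± 0.31) and Lhx2 (2.74 ± 0.45) were higher in epithelium, and Ebf1 (-5.80 ± 0.37), Ebf3 (-5.42 ± 0.38), Ebf2 (-4.50 ± 0.23) and Emx2 (-2.83 ± 0.51) were lower, all called by edgeR (adjusted p from 1.46e-06 to 0.00233) in a comparison that called 49.8% of 14349 genes. The Lhx2 value rests on 14, 35, 13 and 37 UMIs in the epithelium of WT replicates 1, 2, 4 and 5, most of the last 3 in the few basal cells given above, and it was 2.22 to 3.09 with 1 capture left out. Of 15 cofactors and relatives tested, 7 were lower in epithelium, led by Lhx8 (-8.27), and 3 were higher, led by Lmo1 (3.80). In the neurons all 6 members were higher than in mesenchyme: Lhx2 by 8.66 ± 0.26, Fezf1 by 8.47 ± 0.35, Ebf2 by 4.26 ± 0.38, Ebf3 by 2.39 ± 0.31, Emx2 by 2.23 ± 0.57 and Ebf1 by 1.38 ± 0.23 (adjusted p from 3.87e-08 to 0.0127), with 38.2% of 13822 genes called. For Ebf1 the adjusted p was 0.0518 without the block.

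The stromal Ebf level varied by class. Pericytes, the contractile cells around small vessels, held Ebf1 at 567, 1539 and 1837 CPM in WT replicates 1, 2 and 4 (31, 29 and 20 cells), a mean of 1314 ± 664 that overlapped the olfactory neurons; only in WT replicate 1 were pericytes below them. Ebf1 was seen in 30 of 31, 29 of 29 and 19 of 20 of these cells. Their Ebf2 was at 43.4, 146 and 168 CPM and their Ebf3 at 34.7, 53.6 and 107 CPM, and Lhx2 and Fezf1 had 0 UMIs in all 3 (limits of 8.68, 14.6 and 23.0 CPM). Mesenchyme markers summed to 1212 to 2098 CPM in these cells.

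Endothelial cells held Ebf1 at 223 ± 86.2 CPM and Ebf3 at 102 ± 54.3 CPM (n = 4), and Ebf2 at 1.68 ± 2.50 CPM. Bone cells held Ebf1 at 66.2, 237, 354 and 440 CPM. Cartilage was lower than mesenchyme for Emx2 (-2.85 ± 0.20, edgeR adjusted p = 1.30e-05), Ebf3 (-1.50 ± 0.17, 0.000222) and Ebf2 (-1.49 ± 0.14, 8.42e-05), while Ebf1 (-0.26 ± 0.13, 0.143) and Lhx2 (0.75 ± 0.53, 0.309) did not pass; 37.1% of 14250 genes were called. Without WT replicate 1 Ebf1 was called lower as well (-0.40, adjusted p = 0.0199). The Ebf2 and Ebf3 calls were lost without the block (adjusted p = 0.0857 and 0.127).

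Terminal nerve cells, the migratory neurons that leave the developing nose towards the brain and that include GnRH neurons, were asked for 3 of 5 markers (Gnrh1, Gal, Cntn2, Prph, Nhlh2) with fewer than 2 olfactory markers. This gate held 5 cells in Prokr2Cre library 2 and 2 in WT replicate 1, so no test between samples was made. In Prokr2Cre library 2, Lhx2 was at 642 CPM in the 5 cells (73 UMIs) and at 449 CPM in 127 olfactory neurons, a ratio of 1.43 with a 95% interval of 1.11 to 1.81. Ebf1 was at 1908 and 2028 CPM (ratio 0.941, 0.817 to 1.08) and Ebf2 at 686 and 775 CPM (0.885, 0.696 to 1.11). Ebf3 was at 413 and 646 CPM (0.639, 0.468 to 0.854), Emx2 at 141 and 301 CPM (0.467, 0.265 to 0.763) and Fezf1 at 35.2 and 58.1 CPM (0.605, 0.162 to 1.58). In the 2 cells of WT replicate 1 the ratio to its 103 olfactory neurons was 1.42 (0.845 to 2.23) for Lhx2, 0.460 (0.25 to 0.774) for Ebf1, 0.716 (0.341 to 1.33) for Ebf2, 1.11 (0.548 to 2.00) for Ebf3, 1.23 (0.610 to 2.24) for Emx2 and 0.976 (0.198 to 2.93) for Fezf1. By this gate Ebf3 and Emx2 were thus below 1 in one library and above 1, with intervals that include 1, in the other. All UMIs of the members but Lhx2 in WT replicate 1 came from 1 of the 2 cells. These exact intervals cover counting error only.

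Allowing olfactory markers in the terminal nerve gate, a gate added after the cell numbers were seen, gave 50 cells in Prokr2Cre library 2, 13 in WT replicate 1 and 2 or 3 in each of the other 4 libraries. The 50 cells include the 5 and are set against the same 127 neurons, so the ratios by the 2 gates are not independent. The rest of the 50, all but 2 of the 13 and all such cells of the other 4 libraries held at least 2 olfactory markers. They would meet the olfactory neuron gate but for their 3 or more terminal nerve markers. The gate thus does not separate them from olfactory neurons that hold terminal nerve markers. In the 50 cells the ratio to olfactory neurons was 1.41 (1.28 to 1.55) for Lhx2, 0.843 (0.799 to 0.888) for Ebf1, 0.752 (0.688 to 0.821) for Ebf2, 0.649 (0.585 to 0.718) for Ebf3, 0.470 (0.395 to 0.557) for Emx2 and 0.914 (0.667 to 1.24) for Fezf1. With 1 more marker asked of both gates, 3 terminal nerve cells and 106 neurons were left in Prokr2Cre library 2, and the ratio was 0.910 (0.614 to 1.30) for Lhx2 and 1.08 (0.828 to 1.39) for Ebf2. In WT replicate 1 this left 1 cell and 73 neurons. The ratio there was 4.76 (2.63 to 7.98) for Lhx2, 1.65 (0.900 to 2.79) for Ebf1 and 2.66 (1.27 to 4.95) for Ebf2. It was 3.76 (1.86 to 6.84) for Ebf3, 4.95 (2.43 to 9.03) for Emx2 and 3.51 (0.710 to 10.6) for Fezf1. Gnrh1 had UMIs in the 5 and in the 50 cells; the gates ask for these markers, so their levels are no independent check of the cells. In the 13 cells of WT replicate 1, in which Gnrh1 was at 0, Lhx2 was at 440 CPM, Ebf1 at 737, Ebf2 at 353, Ebf3 at 169, Emx2 at 195 and Fezf1 at 128, against 380, 862, 395, 281, 252 and 87.0 CPM in its olfactory neurons. In the libraries with 2 or 3 such cells the Lhx2 ratio was 0.732 (WT replicate 2), 1.80 (WT replicate 4), 3.01 (WT replicate 5) and 1.2 (Prokr2Cre library 1). In WT replicate 5 Ebf1 (1.23), Ebf2 (2.25), Ebf3 (1.10) and Emx2 (1.09) were above 1 as well, whereas these 4 members were below 1 in the other 3.

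**Figure D5:**
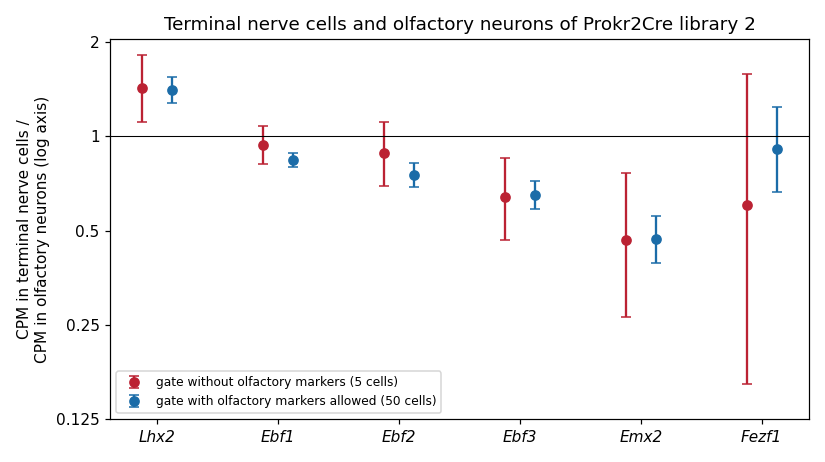
Ratio of the level in terminal nerve cells to that in 127 olfactory neurons of Prokr2Cre library 2 (log axis) for each member, by the gate without olfactory markers (5 cells) and the gate that allows them (50 cells); bars are 95% intervals of counting error. Lhx2 lies above 1 (1.43 and 1.41) and Emx2 below 1 (0.467 and 0.470) by both gates, of which the second holds the cells of the first. All but 5 of the 50 cells hold at least 2 olfactory markers.

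Other neurons, with at least 4 pan-neuronal markers but outside the terminal nerve gate (200 WT cells), held the members as well. They have fewer than 2 olfactory and fewer than 2 progenitor markers, so the gate does not show that they lie outside the olfactory lineage. Lhx2 was at 390, 551, 1138 and 169 CPM in WT replicates 1, 2, 4 and 5, but at 9.44 and 90.2 CPM in Prokr2Cre libraries 1 (16 cells) and 2 (10 cells). Ebf2 was at 221, 382, 976 and 77.9 CPM in WT and 6.30 and 216 CPM in the Prokr2Cre libraries. Ebf3 (173 and 325 CPM) and Emx2 (135 and 108 CPM) were within the WT ranges in both Prokr2Cre libraries (168 to 615 and 107 to 200 CPM). Ebf1 was at 78.7 and 2481 CPM, below and above the WT range of 453 to 1502 CPM, and Fezf1 had 0 and 1 UMI. Mesenchyme markers summed to 827 to 3760 CPM in this class, highest in WT replicate 5 and next in Prokr2Cre library 1 (3012 CPM), where pan-neuronal markers summed to 1051 CPM against 2442 to 6701 CPM in WT; the part of such cells in these levels was not tested.

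In single cells thinned to 2000 UMIs each, Ebf1 was found in 79.0%, 92.5%, 89.5% and 81.8% of the olfactory neurons of WT replicates 1, 2, 4 and 5, Lhx2 in 52.0%, 64.2%, 63.2% and 36.4%, and Ebf2 in 56.0%, 73.6%, 77.2% and 63.6%. Ebf3 was found in 18.2% to 70.2%, Emx2 in 9.09% to 50.9% and Fezf1 in 9.09% to 18.0% of them. Unthinned, Ebf1 was found in 91.7% to 97.1%, Lhx2 in 58.3% to 91.2% and Fezf1 in 16.7% to 49.1%, at median depths of 6768 to 14534 UMIs. In immune cells, thinned, no member was found in more than 1.49% of the cells of a WT capture, at unthinned median depths of 7645 to 19988 UMIs. Thinning left out 3 of 103 neurons in WT replicate 1, 1 of 12 in replicate 5 and none in the other WT captures.

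The members were often found in the same neuron. Among thinned WT olfactory neurons, 79.0%, 90.6%, 87.7% and 54.5% held 2 or more members and 58.0%, 66.0%, 75.4% and 36.4% held 3 or more, against 2.17% to 18.7% and 0.275% to 3.49% of mesenchyme cells. Ebf1 with Ebf2 was the pair in 45.5% to 73.7% of WT neurons, Ebf1 with Lhx2 in 27.3% to 64.2% and Lhx2 with Fezf1 in 9% to 15.8%. In Prokr2Cre library 2, 96.0% of 125 thinned neurons held 2 or more members. Among WT progenitors 34.7%, 47.8%, 57.1% and 52.4% held 2 or more, and 16.5% to 46.5% held none.

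Over 50 sums (14 classes by WT captures), the profile of Lhx2 was most like those of Nhlh1, a helix-loop-helix factor of young neurons (Pearson r = 0.971), Srrm4, a neuronal splicing factor (0.970), and Olig2 (0.965). Fezf1 was most like Foxo6 (0.934), Ckmt1 (0.924) and Lhx2 (0.921). Ebf1 and Ebf3 were the most like each other (0.899), followed by Cpe (0.822) and Cacna2d1 (0.819) for Ebf1 and by Ebf2 (0.796) among the members for Ebf3. Ebf2 was most like Rab6b (0.877), Kcnmb2 (0.875) and Srrm3 (0.852). Emx2 was most like its overlapping antisense gene Emx2os (0.937), then Sept3 (0.923) and Kif5c (0.913). Between members r ranged from 0.337 (Ebf1 with Fezf1) to 0.921 (Lhx2 with Fezf1). These values are descriptions of log2(CPM + 1) profiles over sums that share libraries and differ in depth, among 10506 genes compared.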

How the data were processed

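The authors deposited raw counts of UMIs per gene and barcode (10x 3′ v3.1). Cell Ranger 4, Seurat 4.3.0 and the mm10 build are named per the submitters' processing notes, while the file headers give Cell Ranger 6.0.1, 7.0.0 or 6.1.2; the use of introns and strand is not given in the sources used here. Barcodes with 500 or more genes and no more than 10% of UMIs from mitochondrial genes were kept and gated by marker lists. Cells that met competing gates were left out; Scrublet (scanpy 1.11.5) marked at most 0.333% of a library by its automatic threshold and was taken not to have worked, so its highest scores, 0.8% per 1000 barcodes, were removed only as an alternative.

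UMIs were summed per capture and class of at least 10 cells and tested with edgeR 4.0.16 (quasi-likelihood, TMM, filterByExpr, Benjamini-Hochberg threshold 0.05) in R 4.3.3, on the 2 classes compared, with the capture as a block because both classes came from the same capture. Gate markers were left out of the tests. DESeq2 1.42.0 and other filters, gates and captures were alternatives. The test was also run on simulated counts that hold no capture effect, so they cannot check how the calls depend on the block. The labels do not tie single noses to WT libraries, so p-values measure the spread between captures, which may be technical. Intervals and limits at 0 (3 counts, 95% exact intervals) cover counting error only. WT replicate 3 was not used except in place of replicate 4.

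All 6 members are named, other lists by counts and by the 4 called genes with the largest changes in a direction, and similar genes by the 3 highest correlations per member. Zfp423 and Emx2os were named after their values were seen. The members and lists were chosen with earlier results of these data known. Some genes, and the results that need them, are not reported here.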

Additional observations from a re-analysis of the deposited data

Results flagged for a closer look

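Among 43 groups of 4 WT captures examined, 4 held a capture far from the others, where chance gives about 1 in 20. Lhx2 in olfactory progenitors was 581 CPM in WT replicate 4, against 324 to 362 CPM in the other captures. Ebf1 in epithelium was 15.3 CPM (98 UMIs) in WT replicate 2, against 4.05 to 5.38 CPM; in the same capture it was also at its highest among the 4 in sustentacular cells (16.2 CPM) and immune cells (9.21 CPM, 5 UMIs). Ebf1 in cartilage was 143 CPM in WT replicate 1, against 466 to 492 CPM. Ebf2 in bone cells was 53.3 CPM (204 UMIs) in WT replicate 5, against 2.41 to 9.17 CPM.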

How the results depend on the processing

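Among refits of the members' log2 fold changes, 467 kept direction and call, 16 lost a call, 8 gained one and 7 changed sign. Lhx2 in progenitors against neurons was 0.069 without a low-count filter, -0.20 to 0.11 with 1 capture left out and 0.69 with 1 more marker per gate and 3 captures. Ebf1 in sustentacular cells against epithelium was -0.085 to 0.17 with 1 capture left out and -0.21 with WT replicate 3 in place of 4. Lhx2 in cartilage against mesenchyme was -0.17 to 1.25 with 1 capture left out and -0.26 with the highest doublet scores removed. With 1 more marker per gate the ratio of terminal nerve cells to neurons in Prokr2Cre library 2 was 0.910 for Lhx2 and 1.08 for Ebf2, each on the other side of 1 with an interval that includes 1. In WT replicate 1, with 1 cell left, Ebf1 (1.65), Ebf2 (2.66) and Fezf1 (3.51) moved above 1. Without the replicate block, which pairs classes of one capture, fewer genes were called: 1057 in place of 2866 for progenitors against neurons, 1779 for 3497 in neurons and 1519 for 3847 in progenitors against epithelium, 3209 for 5285 in neurons and 3806 for 7140 in epithelium against mesenchyme, 519 for 2155 in sustentacular cells against epithelium, 812 for 5281 in cartilage against mesenchyme and 0 for 303 in mature against immature neurons (229 at an unadjusted p under 0.05 in edgeR). In that last comparison DESeq2 called 37, removal of the highest doublet scores left 2 and all classes in 1 fit, with 3 captures and 14031 genes tested in place of 2 and 4805, gave 518. All classes in 1 fit, with 12969 genes tested, gave 5398 for neurons against epithelium and 2651 for cartilage against mesenchyme. With 1 capture left out, calls ranged from 1639 (without WT replicate 1) to 3383 for progenitors against neurons, and, lowest without WT replicate 2, from 3477 to 6255 for neurons against mesenchyme and 1307 to 2155 for sustentacular cells. Progenitors against neurons also fell to 1699 without WT replicate 2. Without the block the call of Fezf1 in sustentacular cells was also lost (adjusted p = 0.0552); Ebf2 in progenitors against neurons was called without a low-count filter (0.0372). Lhx2 was called higher in cartilage with 1 more marker per gate (2.14, 0.00126), and Ebf1 lower without the filter (-0.33, 0.00699). The cause of these changes was not tested. Of the WT levels recomputed, 232 moved by less than 1 SD and 8 by more. Of the shares of cells recomputed, 16 moved beyond 1 SD, rising with more UMIs per cell, and 8 did not. Leaving out a capture from mature against immature neurons was not run, since only 2 qualified. Terminal nerve cells, at 5 in Prokr2Cre library 2 and 2 in WT replicate 1, were too few for a test between samples. The added gate held at least 10 cells in only 1 WT capture and was not tested either.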
